A study of Mus musculus with 24 samples.

Results

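Binding of the histone methyltransferase MLL1 was mapped by chromatin immunoprecipitation sequencing (ChIP-seq) in mouse leukaemia cells that carry a fusion of NUP98 to HOXD13, in the solvent DMSO and after VTP50469. VTP50469 is a small molecule that blocks the contact between menin and MLL1. The comparison uses 2 of the 24 samples of the series, or 2 of the 14 that have a list of called regions. Both samples were chosen by their labels: the line NUP98-HOXD13, antibody to MLL1, and 96 h in DMSO or in 2 µM VTP50469. The DMSO list held 20154 regions and the treated list 14744. The line is a mouse leukaemia kept in culture medium with interleukins and stem cell factor, and the labels name no clone, passage or animal. Each condition has 1 library, so no value has a replicate error and no test was made. Intervals are 95% Wilson intervals for shares and cover counting error over regions or genes only. The question was where MLL1 remains on the genome, and at which genes it is called over less length, when its contact with menin is blocked.

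MLL1 is recruited to chromatin through several partners, among them menin, a scaffold protein that binds its amino terminus. MLL1 and its complex place methyl groups on histone H3 at active gene starts, and in blood progenitors they keep Hoxa genes and Meis1 on. NUP98-HOXD13 joins the repeats of a nuclear pore protein to a HOX homeodomain, and leukaemias with NUP98 fusions are known for high Hoxa and Meis1 activity.

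Promoters of 5 genes show the kinds of outcome that follow. They were chosen after their values were seen, and give the 250 bases before a gene start, 5′ to 3′, from the RefSeq promoter table of GRCm38.p6, the patch release of the build mm10. Capitals mark CG dinucleotides, which are counted over all promoters further on. Meis1, Hoxa9 and Dach1 encode transcription regulators, Cdk6 a cell cycle kinase and Gapdh a glycolytic enzyme.
Meis1 (chr11:19018970-19019219, minus strand): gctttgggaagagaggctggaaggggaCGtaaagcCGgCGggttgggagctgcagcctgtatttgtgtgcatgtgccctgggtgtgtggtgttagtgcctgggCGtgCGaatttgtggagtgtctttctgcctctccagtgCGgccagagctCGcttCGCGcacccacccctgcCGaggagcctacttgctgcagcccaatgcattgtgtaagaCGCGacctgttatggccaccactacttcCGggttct
Hoxa9 (chr6:52227371-52227620, minus strand): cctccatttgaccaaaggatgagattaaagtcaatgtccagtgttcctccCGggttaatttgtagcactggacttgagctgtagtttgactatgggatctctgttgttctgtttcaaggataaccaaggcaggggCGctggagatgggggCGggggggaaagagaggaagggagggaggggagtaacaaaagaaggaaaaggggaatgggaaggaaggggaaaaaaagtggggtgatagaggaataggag
Dach1 (chr14:98169766-98170015, minus strand): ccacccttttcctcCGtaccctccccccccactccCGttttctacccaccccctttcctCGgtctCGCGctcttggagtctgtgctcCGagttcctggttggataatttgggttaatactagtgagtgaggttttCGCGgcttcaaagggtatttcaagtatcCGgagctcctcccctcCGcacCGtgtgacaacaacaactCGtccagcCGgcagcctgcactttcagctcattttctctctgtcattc
Cdk6 (chr5:3343643-3343892, plus strand): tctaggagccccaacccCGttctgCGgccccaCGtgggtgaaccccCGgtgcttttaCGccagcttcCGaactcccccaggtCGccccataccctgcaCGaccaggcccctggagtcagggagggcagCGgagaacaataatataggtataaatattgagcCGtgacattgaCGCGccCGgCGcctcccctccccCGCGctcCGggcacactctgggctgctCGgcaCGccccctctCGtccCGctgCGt
Gapdh (chr6:125165774-125166023, minus strand): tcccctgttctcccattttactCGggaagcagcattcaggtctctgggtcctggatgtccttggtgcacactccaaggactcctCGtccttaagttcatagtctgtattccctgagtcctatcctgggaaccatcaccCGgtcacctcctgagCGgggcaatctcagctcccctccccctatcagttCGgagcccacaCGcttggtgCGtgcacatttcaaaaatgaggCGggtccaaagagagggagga
In DMSO all 250 bases of each of the 5 promoters lay in MLL1 regions. After VTP50469, 182 of the 250 bases at Gapdh still did, and none at Meis1, Hoxa9, Dach1 or Cdk6. At Cdk6 and Hoxa9 a region remained within 1 kb of the start, outside the printed bases, while at Meis1 and Dach1 none did. The Meis1 start in the promoter table (19018969) lies inside the annotated gene. A treated region lay from -1034 to -746 bp of the annotated 5′ end, outside the 1 kb window of that start.

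The treated list was shorter mainly at the edges of regions and among weak ones. Of the DMSO bases, 6.94 Mb, or 53.5%, also lay in treated regions. The other 6.03 Mb were divided between regions lost altogether, meaning that they shared no base with a treated region (46.6%), and the flanks of regions that were still called (53.4%). New treated regions, which shared no base with DMSO regions, numbered 995, or 6.75% of the treated list. Bases called only after treatment came to 0.675 Mb, or 8.86% of the treated total. Gene starts, the 1 kb on either side of a start, held 49.3% of DMSO regions and 56.8% of treated ones, while gene bodies held 27.6% and 20.6%, and intergenic regions 22.2% and 21.7%. For genes without a start in the promoter table both gene ends counted as starts here. Read depth is unknown, and the weakest region of each list had a −log10 q near 2 (2.00 and 2.06), so a lost region may have kept enrichment below that limit. A difference in depth or in the immunoprecipitation between the libraries cannot be told apart from the treatment.

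Loss fell on narrow and weak regions, and on gene bodies more than on gene starts. Over all regions 32.7% were lost, and among the 9653 regions under 500 bp the share was 53.1% (52.1% to 54.1%). It was 15.5% from 500 to 1000 bp (the upper bound of each class is left out), 9.40% from 1000 to 2000 bp and 14.1% from 2000 to 4000 bp, and 1 of 30 regions of 4000 bp or wider was lost. By position, 1757 of 9934 regions at gene starts were lost (17.7%), 2955 of 5571 in gene bodies (53.0%) and 1809 of 4465 between genes (40.5%). Gene bodies also held more weak regions, by the fold enrichment that the authors' caller gave each peak. Among the middle regions of the DMSO list by that fold (deciles 4 to 7) the shares were 19.3%, 34.3% and 26.5%, and among the strongest (deciles 8 to 10) they were 0.186%, 1.05% and 0.653%. None of the 2016 regions of the highest decile was lost, against 80.4% of the lowest. When the DMSO list was cut by q to the length of the treated list, 2315 regions were lost (15.7%) and 2112 of the treated regions were new (14.3%). In lists of equal length these counts must lie close together when most regions match 1 to 1. They therefore cannot show what the excess of lost over new regions in the full lists rests on.

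**Figure D1:**
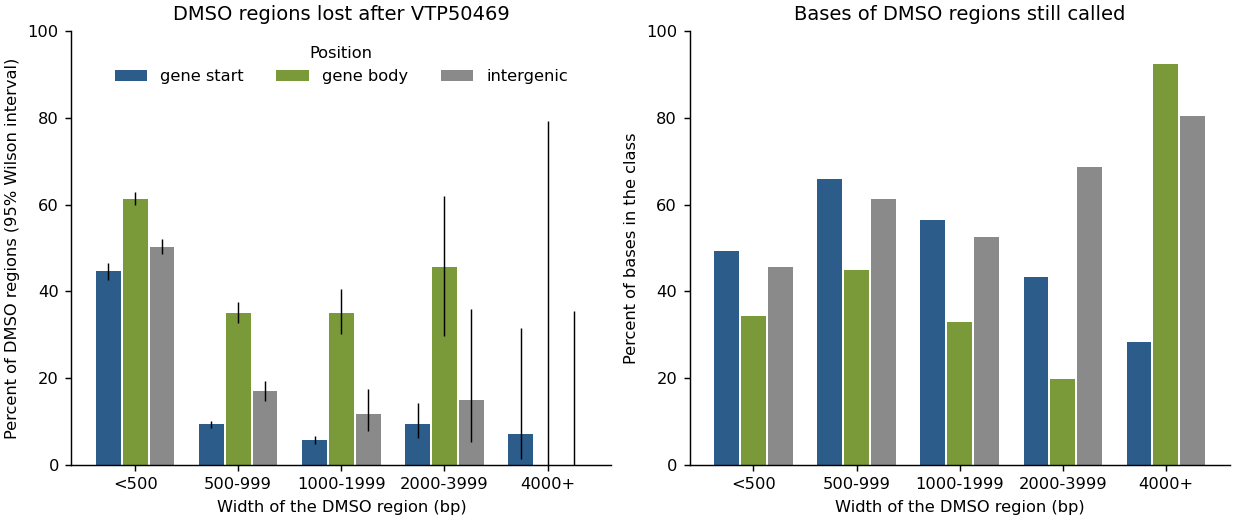
Left, percent of DMSO MLL1 regions with no base in a treated region, by width class in bp and position, with 95% Wilson intervals; right, percent of the bases of the same regions that lie in treated regions. Loss is most frequent under 500 bp at all 3 positions, while the bases kept at gene starts fall from 65.8% at 500 to 1000 bp to 28.3% at 4000 bp or wider; 1 gene body and 7 intergenic regions make up the widest class elsewhere.

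Regions that stayed were narrower, with summits close to those in DMSO. In 13277 cases 1 DMSO region met 1 treated region and no other. Their median width was 630 bp in DMSO and 470 bp after VTP50469, the median ratio was 0.793, and 80.0% were narrower. The summits, the points of highest signal, lay a median of 32.0 bp apart, with 89.3% within 100 bp. Up to 4000 bp, wider regions had lower ratios: the median was 0.957 under 500 bp, 0.756 from 500 to 1000 bp, 0.597 from 1000 to 2000 bp and 0.453 from 2000 to 4000 bp. Between 2000 and 4000 bp, 160 pairs went from a median of 2270 to 1010 bp, and 71.9% of their summits stayed within 100 bp. The 14 pairs of 4000 bp or wider did not follow this order, with medians of 5026 and 4998 bp, a median ratio of 0.988 and 64.3% narrower. The classes were set by DMSO width, which is also the denominator of the ratio, and no classes by treated width were made. How much of the order rests on that choice was not tested.

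The share of DMSO bases that remained was highest next to gene starts. Within 250 bp of the nearest start 77.4% of DMSO bases were still in MLL1 regions. The share was 44.9% from 250 to 500 bp, 28.2% from 500 to 1000 bp and 32.5% from 1000 to 2000 bp, and farther out it lay between 38.7% and 47.1%. The share kept differed between the sides of the start. Over the 8340 genes with a region at their start in DMSO, 92.5% were covered at the start itself and 80.9% after treatment. At 500 bp into the gene the share went from 35.0% to 10.7%, and of the genes covered there in DMSO 28.3% still were. At 500 bp upstream it went from 25.2% to 13.4%, and 49.6% still were. At 1000 bp the values were 10.6% and 3.07% into the gene, and 6.73% and 3.03% upstream. Genes with a long stretch of MLL1, 4 kb or more in all, showed the same sides: of 139 such genes 69.1% were covered 500 bp into the gene in DMSO and 13.7% after treatment, and 53.2% and 27.3% were covered 500 bp upstream.

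**Figure D2:**
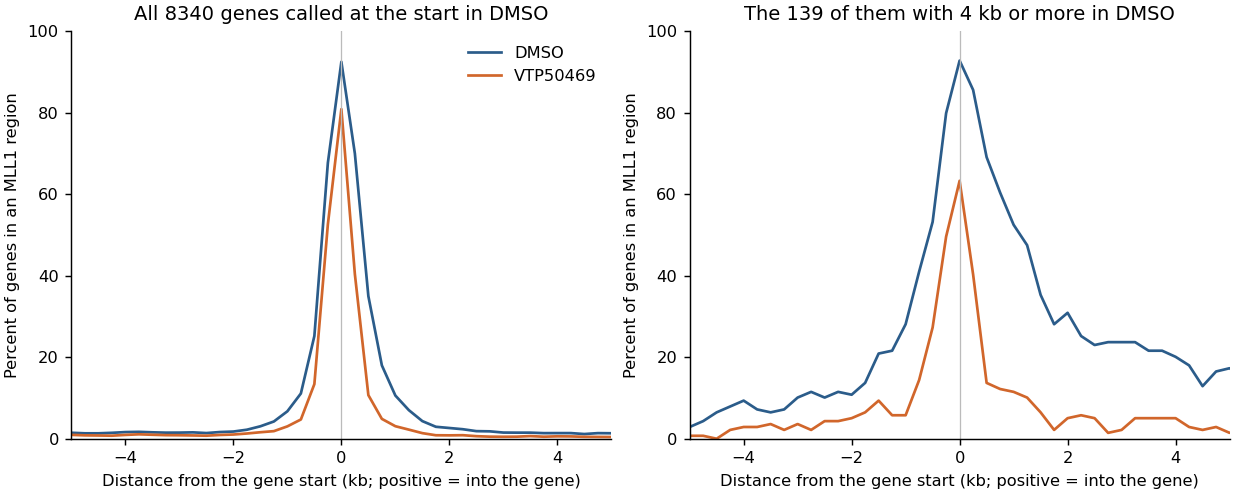
Percent of genes that lie in an MLL1 region at each distance from the gene start in kb (positive values run into the gene), in DMSO and after VTP50469, for the 8340 genes called at the start in DMSO (left) and the 139 of them with 4 kb or more (right). The treated line is lower over most of the range and narrower, and falls faster on the side of the gene body.

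Wide regions at genes were shorter or in pieces after VTP50469, while many between genes kept their width. Of the 292 DMSO regions of 2 kb or wider, 165 had at most 50% of their bases left (56.5%, 50.8% to 62.1%), 42 had at most 10% and 36 at least 90%. The median was 41.7% left, in regions that were chosen by their DMSO width. In place of 1 wide region the treated list had no region in 38 cases, 1 in 179, 2 in 65 and 3 or more in 10. Position divided them: at most 50% was left at 127 of 216 wide regions at gene starts (58.8%, 52.1% to 65.2%), 30 of 34 in gene bodies (88.2%, 73.4% to 95.3%) and 7 of 27 between genes (25.9%, 13.2% to 44.7%). Of the 36 that kept at least 90%, 33 also lay for 50% or more of their bases in the Menin regions of both conditions. The median fold of the 36 was 2.98, against 13.4 for those with at most 50% left. By position, 13 of the 36 lay on other contigs, 12 between genes, 9 at gene starts and 2 in gene bodies. Not all of the 36 had a low fold: it was 23.3 in the one near Esp38 and 15.4 in one near Mid1. Whether the 36 intervals are sites of MLL1 binding was not tested. None of the 50 treated regions of 2 kb or wider was new, and 43 lay for at least 90% within DMSO regions.

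The Hox clusters held the widest MLL1 regions at genes. Hox genes encode the homeodomain proteins that set body position and, in blood, progenitor growth. A DMSO region over Hoxa7 and Hoxa9 (chr6:52215215-52224778) was 9564 bp wide, and 4 treated regions covered 3504 bp of it, or 36.6%. Next to it, the region over Hoxa9 and Hoxa10 (chr6:52225311-52234476) was 9166 bp wide and kept 2278 bp in 4 pieces, or 24.9%. A region over Hoxb8 and Hoxb7 (chr11:96280020-96285609) kept 2941 of 5590 bp. An intergenic region 31184 bp from Kcnrg (chr14:61644018-61649501), a gene for a potassium channel regulator, kept 1438 of 5484 bp. The other 8 of the 12 widest kept between 92.5% and 100%, and none of them lay at a gene start. They were on unplaced contigs, on the mitochondrial genome, in the gene body of Tmem267 and between genes near Alkbh8, Esp38 and Mid1.

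Some wide regions were lost whole. The widest was a region of 4084 bp at the start of Ptger4, which encodes a prostaglandin receptor, and regions of 2987 bp at Ecpas, 2910 bp at Dach1 and 2528 bp at Baz2b also lay at gene starts. In gene bodies, lost wide regions lay in Rnf220, a ubiquitin ligase gene (3931 bp), Skap2, a signalling adaptor gene (3788 bp), Meis1 (3735 bp), Boll (3313 bp) and Runx2 (3280 and 3188 bp). Meis1 encodes the DNA-binding partner of HOX proteins, and Runx2 a transcription factor of bone that is also active in blood progenitors. In Meis1 the lost region spanned 3001 to 6736 bp into the gene (chr11:19012916-19016650).

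Maps of 4 loci showed which pieces stayed. Along Meis1 and its flanks there were 13 MLL1 regions with 11696 bp in DMSO. After VTP50469 there were 2 regions with 678 bp. One lay 94408 bp into the gene and the other from -1034 to -746 bp of the annotated 5′ end. At Mef2c, which encodes a MADS-box transcription factor, 9 regions with 8518 bp became 3 with 1382 bp. The 3 that stayed at Mef2c overlapped DMSO regions at 20551, 67878 and 105099 bp into the gene. At Runx2, 15 regions with 13827 bp became 3 with 1669 bp. Within 25000 bp of Hoxa9 the number of regions went up, from 5 to 9, while their length went from 21850 to 6416 bp. Menin regions at Meis1 went from 10 to 2, at Mef2c from 6 to 2, at Runx2 from 9 to 6 and around Hoxa9 from 15 to 4.

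**Figure D3:**
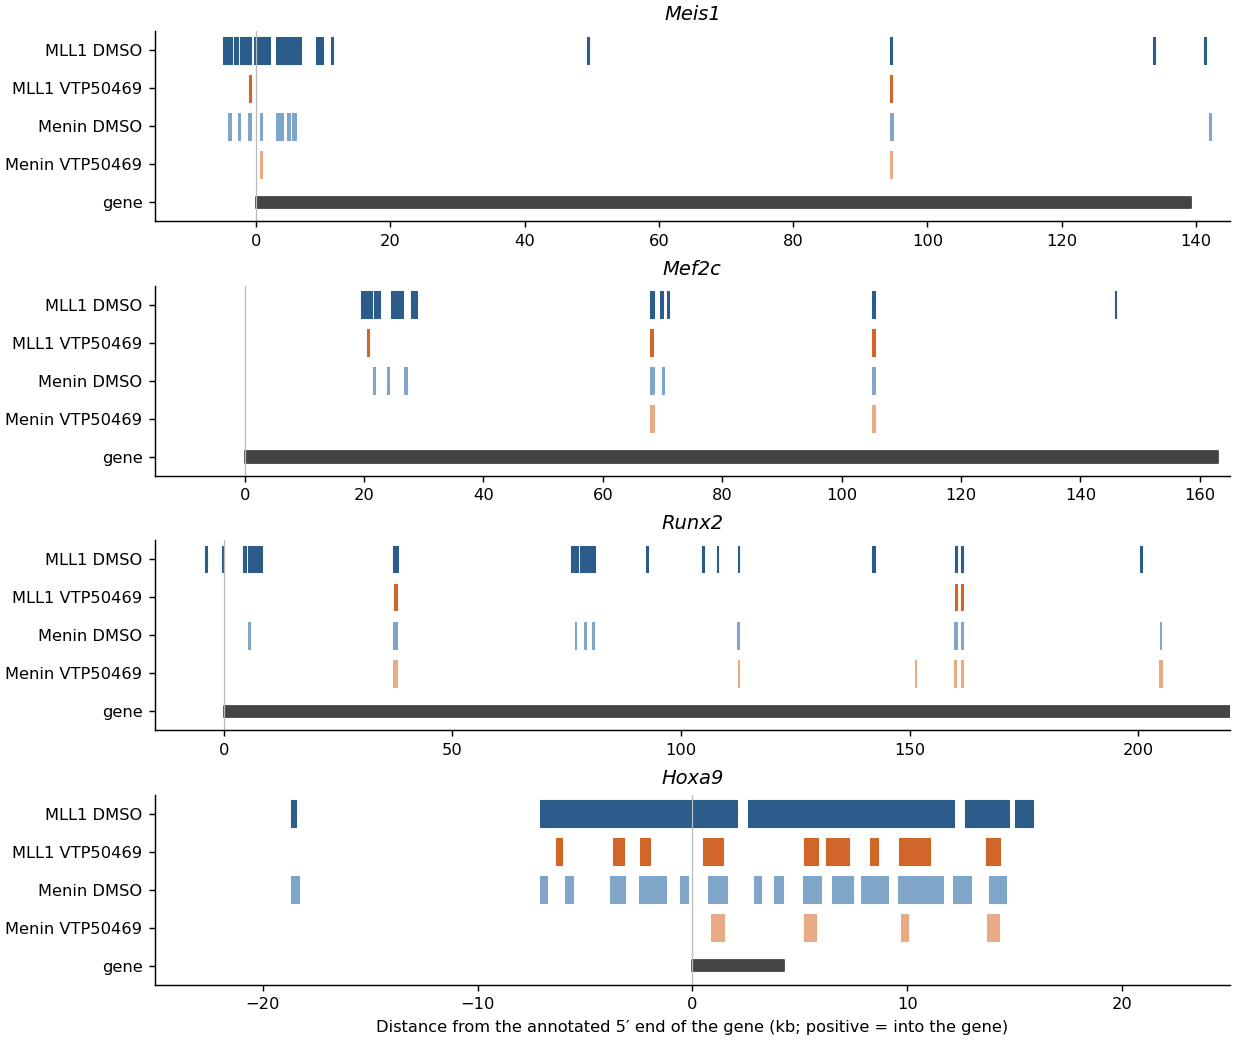
Regions of MLL1 and Menin in DMSO and after VTP50469 along Meis1, Mef2c, Runx2 and Hoxa9, drawn by distance in kb from the annotated 5′ end of the gene, whose span is the lowest bar. Long MLL1 stretches near the 5′ end of Meis1 and across Hoxa9 are short pieces or absent after VTP50469, and single narrow regions deep in Meis1, Mef2c and Runx2 stay.

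Genes were then compared by covered length, the bases of the gene and of 2 kb on either side that lie in MLL1 regions. It is a length, not a level of binding. Of 11562 genes covered in DMSO, 3518 had at most 50% of the length after VTP50469, which is 30.4%, and the median ratio was 0.667. No region was left at 1236 genes, and the length was longer at 1176 (10.2%). The share with at most 50% left was 37.7% under 500 bp and above that it went up with the length in DMSO: 18.6% from 500 to 1000 bp, 32.0% from 1000 to 2000 bp, 53.2% from 2000 to 4000 bp and 81.1% from 4000 to 8000 bp. Of the 20 genes with 8000 bp or more, 18 had at most 50% left, at a median ratio of 0.168. Of the 9 genes with 4 kb or more after treatment, none had 50% or less of that in DMSO. Only 8.86% of treated bases lay outside DMSO regions, so this count could hardly have come out otherwise. It does not show what the choice of genes by DMSO length adds. For the genes of 4 kb or more in DMSO, 82.0% had at most 50% left, 68.1% (81 of 119) with lists of equal length and 56.1% (23 of 41) with the DMSO list cut to the covered length of the treated list.

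**Figure D4:**
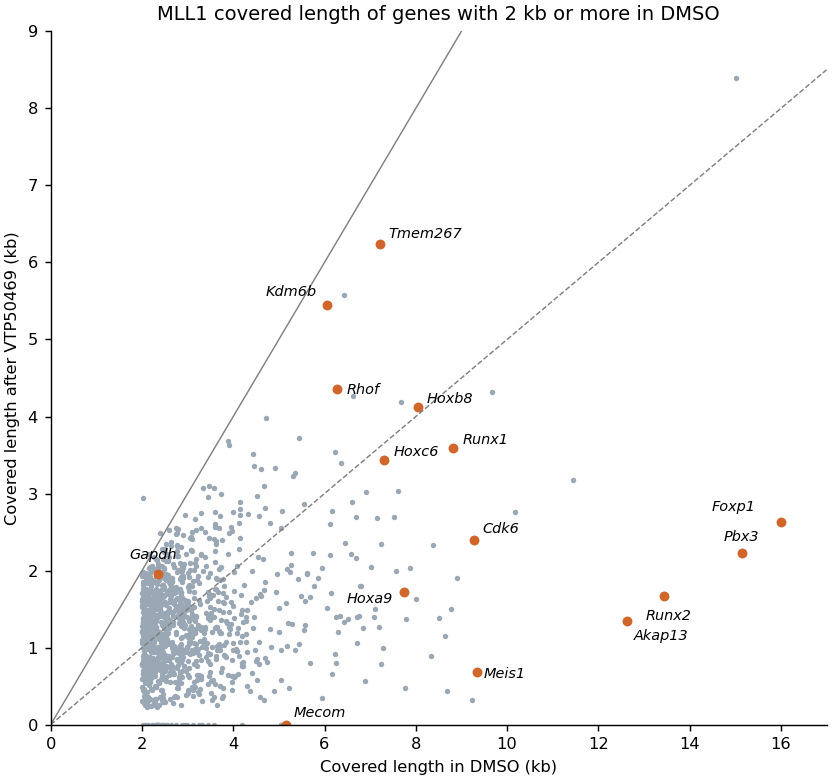
Covered length of MLL1 in kb in DMSO (horizontal) and after VTP50469 (vertical) for each gene with 2 kb or more in DMSO. The solid line marks equal lengths and the dashed line 50%; Foxp1, Pbx3, Runx2, Akap13 and Meis1 lie far under the dashed line, and Kdm6b and Tmem267 near the solid one.

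The 5 largest decreases in covered length were at Foxp1, Pbx3, Runx2, Akap13 and Dach1, at ratios of 0.165, 0.147, 0.124, 0.106 and 0.0347. Foxp1 encodes a forkhead factor of B cells and progenitors, Pbx3 a HOX partner and Akap13 an anchor for protein kinase A. Pde4d, which encodes a cyclic AMP phosphodiesterase, went from 11454 to 3181 bp. Etv6, which encodes an ETS repressor needed by blood stem cells, went from 10174 to 2764 bp. Baz2b, a bromodomain gene, went from 8894 to 1904 bp, and the cohesin subunit gene Stag1 from 8771 to 1500 bp. Dennd1b had 8685 and 437 bp, Zfp710 8630 and 1150 bp, 9930021J03Rik 8340 and 888 bp, and Tut4, which encodes a uridylyltransferase of RNA, 7758 and 474 bp. The 15 largest decreases lay between 6990 bp at Baz2b and 13358 bp at Foxp1. With lists of equal length some ratios were over 1.5 times higher: 0.283 at Foxp1, 0.0533 at Dach1, 0.506 at Pde4d, 0.0797 at Dennd1b, 0.263 at Stag1 and 0.264 at Mef2c.

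A few long genes changed little in length. The highest ratio among genes of 4 kb or more was at Kdm6b, which encodes a demethylase of histone H3 lysine 27 (6065 to 5442 bp, 0.897). Tex14 followed with 6429 and 5572 bp and Tmem267 with 7207 and 6242 bp, the latter almost all from the gene body region named above. The start of Tmem267 itself was lost. Prkch, a protein kinase C gene, went from 4708 to 3985 bp, and Mnt, a repressor of the MYC network, from 4443 to 3515 bp. The other 5 had ratios from 0.685 to 0.752 and were Zfp36l2, Ssh2, Trim8, Rhof and Klf13. At Actb the ratio was 0.923 with the full lists but 1.41 with lists of equal length, so that its direction rests on the lists used. At Gapdh it was 0.832 with both.

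HOX genes and their partners differed among themselves. In the Hoxa cluster 6 of the 7 covered genes had at most 50% left (median ratio 0.222), in Hoxb 5 of 7 (0.315) and in Hoxc 5 of 6 (0.387), beside 30.4% and 0.667 over all genes. These clusters are also long in DMSO, with medians of 3973, 3388 and 3125 bp against 877 bp over all genes. Between 2000 and 4000 bp, 53.2% of all genes had at most 50% left, at a median ratio of 0.481. The Hoxd cluster carried no MLL1 in either list. In Hoxa, the 4 longest were Hoxa9 (ratio 0.222), Hoxa7 (0.366), Hoxa10 (0.247) and Hoxa3 (3973 to 634 bp). In Hoxb, Hoxb3 went from 8377 to 2334 bp, Hoxb8 from 8040 to 4126 bp, Hoxb5 from 4522 to 584 bp and Hoxb7 from 3388 to 1067 bp. In Hoxc, Hoxc6 went from 7306 to 3441 bp, Hoxc4 from 5866 to 1907 bp, Hoxc5 from 5740 to 2235 bp and Hoxc8 from 510 to 196 bp. Neighbours in a cluster share bases within 2 kb, so these genes are not separate measurements. Of the TALE partners, a class of homeodomain proteins that bind DNA with HOX proteins, 2 of 8 had at most 50% left, Pbx3 and Meis1. Tgif1 had 4137 and 2282 bp, Pknox1 1272 and 1177 bp, and Pbx2 and Tgif2 were slightly longer after treatment.

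Genes known as menin and MLL targets in leukaemia and transcription factors of stem cells were among the lists with the lowest ratios. Of the 27 covered target genes 19 had at most 50% left (70.4%, median ratio 0.259), and all 11 with 4 kb or more did, beside 82.0% of all genes of that length. Of the transcription factors of stem and progenitor cells, 15 of 20 did (median 0.257). These lists are also long in DMSO, with a median of 3453 and 3497 bp against 877 bp over all genes, and between 2000 and 4000 bp 53.2% of all genes had at most 50% left. Runx1, a master factor of blood stem cells, went from 8821 to 3597 bp. Erg, an ETS factor gene, went from 7273 to 993 bp, a ratio of 0.137 that was 0.234 with equally long lists. Mecom, which encodes EVI1, had 5165 bp in DMSO and none after VTP50469, and both of its starts in the table were lost. Cdk6 had a ratio of 0.259 and kept its start.

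Myeloid factors and effectors were less uniform. Of 23 covered transcription factors of myeloid cells, 11 had at most 50% left (47.8%, median ratio 0.505), but with lists of equal length 5 of 22 did (22.7%), beside 21.9% of all genes. Rara, the retinoic acid receptor gene, went from 6906 to 3022 bp and Junb from 5044 to 2549 bp. Ikzf1 went from 4016 to 624 bp and Gfi1, which encodes a transcriptional repressor, from 3771 to 379 bp. At Ikzf1, which encodes a zinc finger factor of blood lineages, the ratio of 0.155 was 0.385 in lists of equal length. Of the effector genes of granulocytes and monocytes 5 of 22 had at most 50% left (22.7%, median ratio 0.854), the highest median of the lists with 5 or more covered genes. Prtn3, a granule protease gene, had 3046 and 1510 bp, Ncf4, an oxidase subunit gene, 2071 and 1748 bp, the Fc receptor gene Fcgr3 2056 and 1348 bp, and Fcer1g 1435 and 792 bp.

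Receptor and signalling genes lay near the values of all genes. Of 22 growth factor and cytokine receptor genes 8 had at most 50% left (36.4%), and of 39 genes of JAK-STAT, RAS and PI3K signalling 13 did (33.3%), beside 30.4% of all covered genes. The longest receptors were Igf1r with 3971 and 2509 bp, Csf2ra with 2032 and 1613 bp, Ifnar2 with 2014 and 1194 bp and Cxcr4 with 1904 and 1350 bp. At Ifnar2 the ratio of 0.593 became 1.59 with lists of equal length. Longest in the signalling list were Pik3r1, a PI3 kinase subunit gene (5583 to 1608 bp), Stat5b (4087 to 958 bp), Socs2 (3637 to 972 bp) and Inpp5d (3439 to 1418 bp).

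Interferon-stimulated genes, which act in defence against viruses, kept less of their MLL1 length at the median than all genes did. Of 32 covered genes 21 had at most 50% left (65.6%, median ratio 0.376), beside 30.4% of all genes. With lists of equal length 15 of 29 did (51.7%), beside 21.9%. Their median length in DMSO was 1314 bp, and between 1000 and 2000 bp 32.0% of all genes had at most 50% left. Uba7, which encodes the enzyme that activates ISG15, went from 6706 to 1059 bp, Tap1, a peptide transporter gene, from 4694 to 1855 bp, and Samhd1, a nucleotide hydrolase gene, from 4205 to 756 bp. All 2943 bp at Parp14 were lost. At gene starts, 8 of 27 bound members were lost, beside 11.7% of all bound starts. Dtx3l and Parp9 have the same 2524 and 842 bp, and Psmb9, Tap1 and Psmb8 are neighbours within 2 kb, so these members are not separate measurements. The difference from other genes was not tested.

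Genes of the menin and MLL complexes lay near the values of all genes. Of 20 covered genes 4 had at most 50% left (20.0%, median ratio 0.716), beside 30.4% and 0.667 over all genes. No start of 15 was lost, beside 11.7% of all bound starts. Kansl1 went from 4219 to 1336 bp, Setd1b from 2054 to 865 bp (a ratio of 0.421, and 0.681 in equally long lists), Pagr1a from 2037 to 790 bp and Hcfc2 from 1934 to 1343 bp. Of the elongation and DOT1L complex genes, which MLL fusions recruit, 9 of 27 had at most 50% left (33.3%, 0.633), with Aff1 at 7529 and 2692 bp, Mllt10 at 3499 and 1356 bp, Ell at 2937 and 2717 bp and Mllt3 at 2621 and 655 bp. For Ell the ratio of 0.925 became 1.04 in equally long lists. Of the polycomb genes 10 of 32 did (31.2%, 0.638), led in length by Pcgf5 (3478 to 1702 bp), Kdm2b (2775 to 845 bp) and Jarid2 (2698 to 2046 bp).

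Cell cycle and apoptosis genes stood close to all genes, of which 30.4% had at most 50% left at a median ratio of 0.667. In the cell cycle list 13 of 37 had at most 50% left (35.1%, median ratio 0.589), with Rb1, the retinoblastoma gene, at 4087 and 1187 bp, Ccnd3 at 3958 and 2568 bp and E2f2 at 3405 and 2055 bp. In the apoptosis list 10 of 26 did (38.5%, 0.574), with Bbc3 at 3908 and 3628 bp, Bcl2l1 at 3012 and 1972 bp, Bcl2l11 at 2883 and 1651 bp and Casp8 at 2742 and 1209 bp. The share was 27.6% of 58 genes of oxidative phosphorylation, 18.8% of 32 proteasome genes, 17.1% of 41 DNA replication genes, 14.3% of 28 housekeeping genes, 14.1% of 78 ribosomal protein genes and 5.00% of 20 tRNA synthetase genes. Oxidative phosphorylation lay near the share of all genes, and the other 5 of these lists had lower shares. Most of these lists are short in DMSO. Median lengths were 690 bp for oxidative phosphorylation, 854 bp for proteasome, 848 bp for replication, 863 bp for ribosomal protein and 819 bp for tRNA synthetase genes. From 500 to 1000 bp the share over all genes was 18.6%. Housekeeping genes had a median of 1538 bp, and from 1000 to 2000 bp the share over all genes was 32.0%. None of the 57 bound starts of ribosomal protein genes was lost, beside 11.7% of all bound starts. Among MHC class II genes 2 of 7 had at most 50% left.

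**Figure D5:**
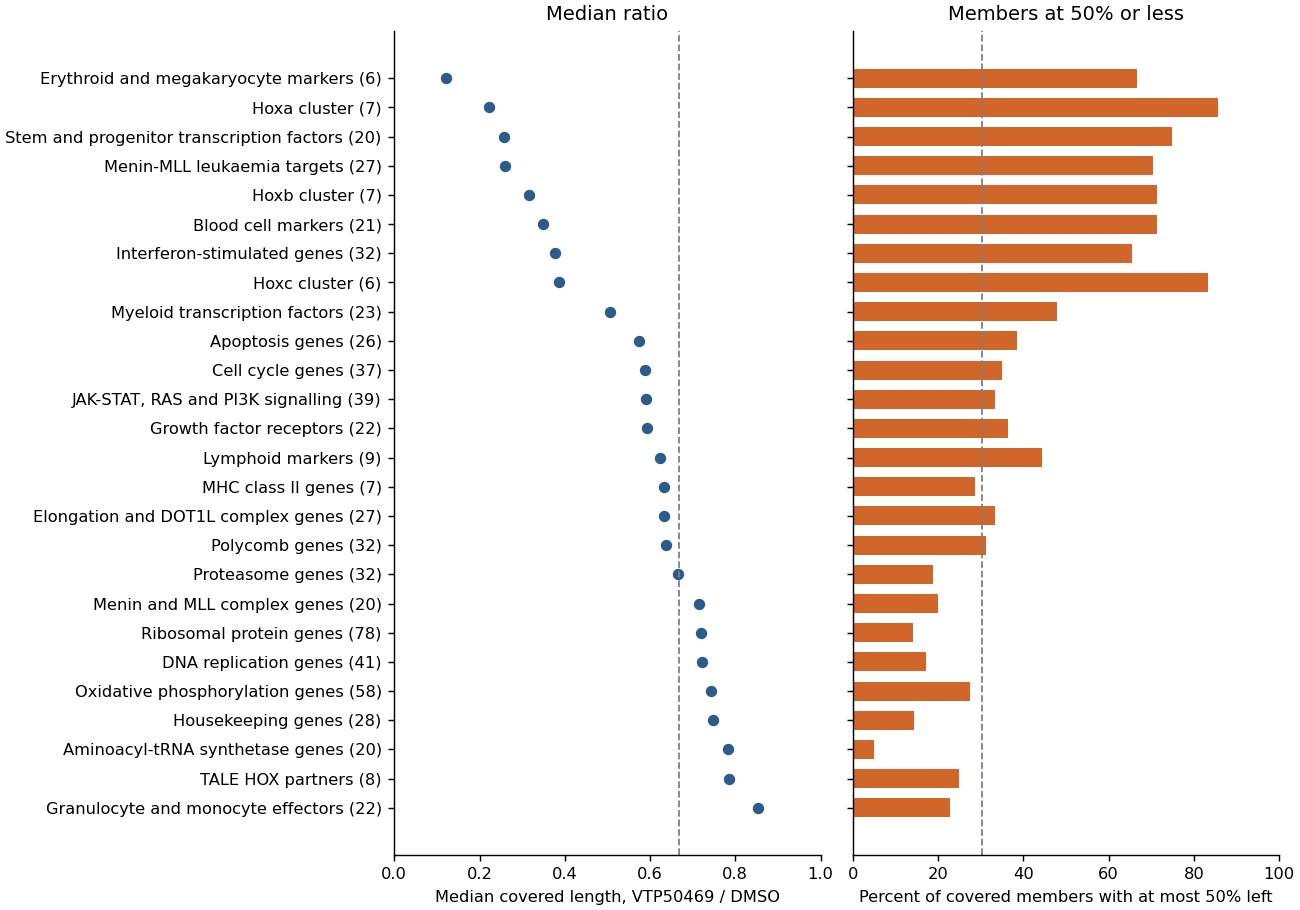
Median ratio of covered length (VTP50469 over DMSO, left) and percent of covered members with at most 50% left (right) for each gene list with 5 or more genes covered in DMSO, whose number is in brackets; dashed lines show all covered genes (0.667 and 30.4%). Hox clusters, stem cell factors, menin and MLL targets, blood markers and interferon-stimulated genes lie below the median line, and tRNA synthetase, housekeeping and effector genes above it. The lists also differ in covered length in DMSO, and the dashed lines are not matched for it.

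Markers of blood cells had MLL1 regions and most markers of other tissues had none, as far as a binding map can check a cell type. All 21 blood markers had an MLL1 region in DMSO and 16 after VTP50469, while 4 of 30 markers of other tissues had one in each condition. Over all 21631 genes, 11562 had one in DMSO and 10485 after VTP50469. The blood markers went from 40127 to 16118 bp. The longest were Runx1, Ikzf1 (ratio 0.155), Cd47 (3652 to 1272 bp) and Lcp1 (3073 to 2266 bp, though 1.02 as a ratio with lists of equal length). In DMSO, erythroid and megakaryocyte markers had regions at 6 of 21 genes, lymphoid markers at 9 of 27 and mast cell and basophil markers at 1 of 10. The effector genes of granulocytes and monocytes had them at 22 of 28 in DMSO and 18 after VTP50469. Itgam, Cd14, Ly6g, Ltf and Ngp were among those without one in DMSO. All 2506 bp of Car2, a carbonic anhydrase gene, were lost. Of 17 bound starts of blood markers 8 were lost, beside 11.7% of all bound starts. The part of other cell types in the results was not tested.

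At gene starts, loss was more frequent than gain with the full lists. Of the 17274 genes whose start is known from the promoter table, 8340 had a DMSO region within 1 kb, and 978 of these had none after treatment, which is 11.7% (11.1% to 12.4%). Of the other 8934 genes 73 gained a region, or 0.817%. With lists of equal length 536 of 7700 were lost (6.96%) and 271 of 9574 gained (2.83%). With the DMSO list cut by q to the covered length of the treated list (8756 regions) the order turned, with 67 lost and 1538 gained. That list has far fewer regions than the treated list of 14744, so this order follows largely from the list lengths. By the fold that the authors' caller gave them, the strongest lost regions at starts lay at Tnrc6b (17.5), Tnfrsf12a (16.4), Tnfrsf1b (16.4), Nek2 (16.1), Rab3il1 (15.8) and Syt11 (15.1). Next came Diaph2, Ndufa12, Slc12a4 and Grb2, with folds from 12.7 to 13.7. Tnrc6b encodes a protein of microRNA silencing, Tnfrsf12a and Tnfrsf1b encode receptors of the TNF family, and Grb2 an adaptor of receptor signalling. All 10 regions overlapped a Menin region in DMSO and 8 of them one after VTP50469. They were picked for high fold, and nearly all of the strongest DMSO MLL1 regions overlapped Menin, so the overlap in DMSO is not particular to them. Over all lost regions at gene starts, the rest of which were weaker, 49.6% and 27.7% did.

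The strongest new regions at starts were narrow. They lay at Abca13, Zfp558, St6galnac3, Hal, Hsd11b1, Ankrd22, Card9, Stfa1, Klra2 and Cfp, with folds from 9.02 to 12.3 and widths from 241 to 479 bp. Card9 encodes an adaptor of innate immune receptors in myeloid cells, and Cfp encodes properdin of the complement system. Stfa1 and Klra2 have near-identical relatives nearby, so their reads may be shared. Of the 10 regions 9 already overlapped a Menin region in DMSO, beside 65.3% of all new regions. The 10 were picked for high fold, so these are not shares of like regions.

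Some genes lost MLL1 at one start and kept it at another. Of 299 genes with 2 or more starts called in DMSO among starts over 2 kb apart, 85 lost at least 1 and kept at least 1. At Foxp1 2 starts were lost, at positions 99028298 and 99266515 of chromosome 6, and the start at 99520993 was kept. At Mef2c the start at 83523656 of chromosome 13 was kept and that at 83573607 lost. At Dennd1b the upstream start (138963709 of chromosome 1) was lost and the downstream start (138967721) kept. Both starts of Runx1 were kept and both of Gata2, a stem cell factor gene, were lost.

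Menin was mapped in the same line under the same treatment, in libraries whose titles carry another date. MLL1 regions with and without Menin were lost in different shares. Of the 15561 DMSO MLL1 regions with Menin in DMSO 16.0% were lost (15.4% to 16.6%), and of the 4593 without it 89.1% (88.2% to 90.0%). Regions without Menin were also weaker. Within deciles 1 to 3 of fold the shares were 49.3% and 92.6%, within deciles 4 to 7 17.6% and 78.5%, and within deciles 8 to 10 0.249% and 4 of 14. Menin itself was called at 92.2% of the kept MLL1 regions after VTP50469 and at 23.7% of the lost ones. Over the wide MLL1 regions 47.8% of MLL1 bases were left. Menin bases there went from 449522 to 339876, or 75.6%. Over all MLL1 regions the values were 53.5% and 83.6%. These are unlike measures. The MLL1 share counts DMSO bases that were still called, in intervals chosen on MLL1 in DMSO. The Menin value is a ratio of totals that includes newly called bases, so the values do not show which protein stayed more. New MLL1 regions overlapped Menin in DMSO in 65.3% of cases, against 96.2% of treated regions that were not new.

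The same genes are given beside the NUP98-HOXA9 line, treated for 72 h, a time that the label of its treated library does not give and that was assumed. The NUP98-HOXA9 lists covered 15.5 Mb in DMSO and 12.4 Mb after 2 µM VTP50469, against 13.0 and 7.61 Mb in NUP98-HOXD13. Times and this change over the whole lists differ, so values stand side by side and no difference between the lines was tested. Of the 189 genes with 4 kb or more in DMSO in NUP98-HOXD13, 148 had 4 kb or more in NUP98-HOXA9 too. Of these 148, 117 had at most 50% left in NUP98-HOXD13, 87 in NUP98-HOXA9 and 83 in both. The genes 9930021J03Rik and Tut4 were long in NUP98-HOXD13, with 1797 and 2414 bp in DMSO in NUP98-HOXA9. Mecom had 1265 bp in DMSO there, and none after treatment. Of the lost MLL1 regions 57.5% overlapped a DMSO region of NUP98-HOXA9, and of the kept ones 94.8%, beside 82.6% of all DMSO MLL1 regions. Loss fell on weak regions, and this overlap was not split by fold.

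Promoters that kept MLL1 held more CG at the median than those that lost it. In the 300 bases from 250 before to 50 after the start, the median number of CG dinucleotides was 23.0 at the 7362 kept starts, 16.0 at the 978 lost, 16.0 at the 73 gained and 4.00 at the 8861 never called, with 14.0 over all 17274. The lower quartile of kept starts was 16.0, the same as the median of lost ones, so the groups overlap widely. The letters CCGGAA, the core of many ETS sites, which itself holds a CG, were found on either strand in 34.3% of kept and 19.2% of lost promoters, against 19.3% of all. TGACAG, a core of TALE sites, was in 16.3% and 17.8%, against 18.3% of all, and TATAAA in 6.14% and 6.85%, against 13.4%. None of these 3 words contains another. At genes of 4 kb or more the median was 22.0 CG where at most 50% of the length was left (121 promoters) and 27.0 where more was left (27 promoters). The printed promoter of Hoxa9 has 3 CG in its 250 bases, those of Meis1 and Dach1 13 each, Cdk6 22 and Gapdh 8. A match of letters is a description of the sequence and not a bound site.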

How the data were processed

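MLL1 and Menin were mapped by ChIP-seq in NUP98-HOXD13 cells, and MLL1 in NUP98-HOXA9 cells, with 1 library per condition. The build is mm10, and the software listed in the submitters' processing notes is STAR 2.7.5a, MACS2, Picard 2.9.4, bedtools, SAMtools and bcl2fastq 2.20.0.422. The settings, and which input was the control of a list, were not given in the sources used here. Each deposited list gives, per peak of 1 library, an interval, the authors' fold enrichment (a ratio), −log10 p and −log10 q values, and a summit. The deposited score was not used. Fold ranks peaks within 1 list only. Read depth is unknown. The numbers of called regions, 20154 and 14744, limit the precision.

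A region was lost where it shared no base with a treated region (minimum 1 bp). Gene intervals were those of RefSeq for GRCm38.p6, and starts those of its promoter table, which holds a start for 17274 of 21631 coding genes. Covered length counts bases of a gene and of 2 kb on both sides. Lists of equal length keep the DMSO regions with the highest −log10 q. The 29 gene lists and the comparisons were chosen with earlier results of these data known, and 4 listed names matched no gene. Named are, per list, the 4 longest members in DMSO and members falling to 0 from 2 kb or more, the 15 largest falls, the 10 highest ratios among genes of 4 kb or more, the 10 strongest lost and new regions at starts, the 12 widest regions, up to 10 wide regions lost whole, and Actb and Gapdh. Other genes were named after their values were seen. Some genes that this rule takes in are not reported here. The interval functions were tested on simulated lists (6 of 6 checks recovered), with Python 3.11.15, numpy 2.4.6 and pandas 2.3.3. With 1 library per condition no p-value was computed.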

Additional observations from a re-analysis of the deposited data

Results flagged for a closer look

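Of 79 genes named above with 2 kb or more of MLL1 in DMSO in both lines, 6 had a shorter covered length after VTP50469 in NUP98-HOXD13 and a longer one in NUP98-HOXA9. Most of the named genes were picked by their length or change in NUP98-HOXD13. The share over all genes of 2 kb or more in both lines is not given here, so 6 of 79 has no background to be read against. The whole NUP98-HOXA9 list also fell less in covered length. With 1 library per condition and different times, the difference between the lines was not tested. Rara, the retinoic acid receptor gene, differed by -3884 bp in NUP98-HOXD13 and by 1538 bp in NUP98-HOXA9 (3202 to 4740 bp). Tex14 differed by -857 and 738 bp, the oxidase subunit gene Ncf4 by -323 and 1109 bp, and the cytokine receptor gene Csf2ra by -419 and 121 bp. The elongation factor gene Ell differed by -220 and 332 bp, but with lists of equal length it was longer in NUP98-HOXD13 too (2613 to 2717 bp). Gapdh differed by -396 and 10 bp.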

How the results depend on the processing

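Counts moved with the lists used. With lists of equal length the lost regions numbered 2315, 2112 were new, 536 starts were lost, 271 were gained, and 81 genes of 4 kb or more had at most 50% left. With the DMSO list cut to the covered length of the treated list, an alternative chosen after seeing the data, the counts were 168, 5986, 67, 1538 and 23 (of 41 genes). Wide regions with at most 50% left numbered 546 of 825 with regions within 1 kb joined and 38 of 66 at 3 kb or wider, and 701 of 1216 genes of 2 kb or more had at most 50% left. In each of these 3 the count changed with the number of regions or genes in the class. Wide regions with at most 50% left were 162 of 284 with lists of equal length, 113 of 226 with the cut to covered length and 164 of 277 on chromosomes 1 to 19 and X. The other alternatives (−log10 q of at least 5, an overlap of 50%, a 2 kb window, summits, no flank) left counts within 1.5 times.

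Of the named genes and lists, a few changed direction. With lists of equal length the ratio of covered length was 1.41 at Actb, 2.16 at Card9, 1.59 at Ifnar2, 1.04 at Ell, 1.02 at Lcp1 and 7.30 over the markers of other tissues. With −log10 q of at least 5 it was 1.41 at Actb, 2.16 at Card9 and 1.59 at Ifnar2. The other named genes and lists with a value under both alternatives had the direction of the full lists. With lists of equal length 11 of these genes moved by over 1.5 times, among them Gata2 (0.167), Mid1 (4.08), Ikzf1 (0.385), Setd1b (0.681) and Pde4d (0.506), the last 2 past 50%, as did the erythroid and megakaryocyte list (0.265 to 0.472). With −log10 q of at least 5 the mast cell list, 1 covered gene, moved to 0.334.

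No paired analysis was possible because each condition has 1 library. Peak lists hold no depth, so weak binding under the calling limit cannot be told apart from none.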
